A study of Rattus norvegicus with 18 samples.

Results

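Prostaglandin and leukotriene enzymes were followed in rat lungs after warm ischaemia and reperfusion. They comprise 9 genes, Ptgs1, Ptgs2, Ptges, Ptgis, Hpgd, Alox5, Alox5ap, Alox15 and Ltc4s, of 10412 genes with 1 symbol on the array, and were chosen by the symbol that the platform annotation gives. They are covered by 11 of the 15923 probe sets, since Ptges and Hpgd have 2 each. Male Sprague-Dawley rats (age not given in the labels) were anaesthetised, ventilated and opened by left thoracotomy, and the left hilum was clamped for 2 h. Clamped left lungs were collected after 3 h (n = 3) or 30 min (n = 3) of reperfusion, and the unclamped right lungs of the same rats at the same times (n = 3 and n = 3). The controls were 6 lungs from 6 rats, collected right after anaesthesia and sacrifice, and no thoracotomy or clamp is described for them. The side of the control lungs is not given, every clamped lung was a left lung, and no rat is described as operated without a clamp. Between left and right lungs, clamp and side therefore cannot be told apart. Against control, left lungs carry clamp, side and operation together. Right lungs carry side, operation and a clamp on the other lung together, and these cannot be told apart either.

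Eicosanoids are made from arachidonic acid, which phospholipases release from membranes. The cyclooxygenases Ptgs1 and Ptgs2 turn it into prostaglandin H, from which Ptges makes prostaglandin E and Ptgis makes prostacyclin, a dilator of lung vessels. Hpgd inactivates prostaglandins, and the lung is a main site of this clearance. Alox5, helped by its membrane partner Alox5ap, starts leukotriene synthesis in leukocytes, Ltc4s makes the cysteinyl leukotrienes that constrict airways and vessels, and Alox15 makes other hydroxylated fatty acids.

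Each lung was measured on 1 array, and values are MAS5 signals on a linear scale, which compare arrays for 1 probe set but not genes with each other. The 3' to 5' ratio of beta-actin, which rises when RNA is degraded, was 1.49 to 1.62 in left lungs at 3 h, 1.53 to 4.81 in left lungs at 30 min, 1.42 to 1.78 in right lungs at 3 h, 1.47 to 2.93 in right lungs at 30 min and 1.31 to 1.54 in controls. The 3 arrays above 2 were left 30 min replicates 1 and 3 and right 30 min replicate 3. Lung markers were high on all arrays, with Sftpc of type II cells at 10570 or more. Differences below are of log2(signal + 25), which understates the change of dim genes, and "called" means an adjusted p under 0.05 from limma over the 10533 probe sets that passed a filter on low signals. Of the 11 probe sets of these enzymes, 10 passed, and a gene with several is counted by the one with the highest mean signal.

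Of the 9 enzymes, counted by the probe set of highest mean, Ptgs2, Ptgis and Alox15 were called higher and Alox5 and Hpgd lower in at least 1 operated group. The other Hpgd probe set, 1387631_at, is not in these counts. It was called higher in left lungs at 30 min and lower in left lungs at 3 h. In left lungs at 3 h Ptgs2 was called higher and Alox5 lower, 2 of 9 genes, against 37.6% of all 7728 tested genes. In left lungs at 30 min 1 of 9, Ptgs2, was called (18.2% of all genes). In right lungs at 3 h Ptgis was called higher and Hpgd lower (20.4% of all genes), and at 30 min Alox15 higher (12.3% of all genes). Counts of 1 or 2 of 9 were near or below the shares among all genes, so nothing is read from them about the group as a whole. Their median log2 difference was -0.15 in left lungs at 3 h, 0.12 in left lungs at 30 min, 0.06 in right lungs at 3 h and -0.01 in right lungs at 30 min, against -0.13, -0.06, -0.05 and -0.04 over all genes in the same order. All 4 comparisons share the same 6 control arrays.

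**Figure D1:**
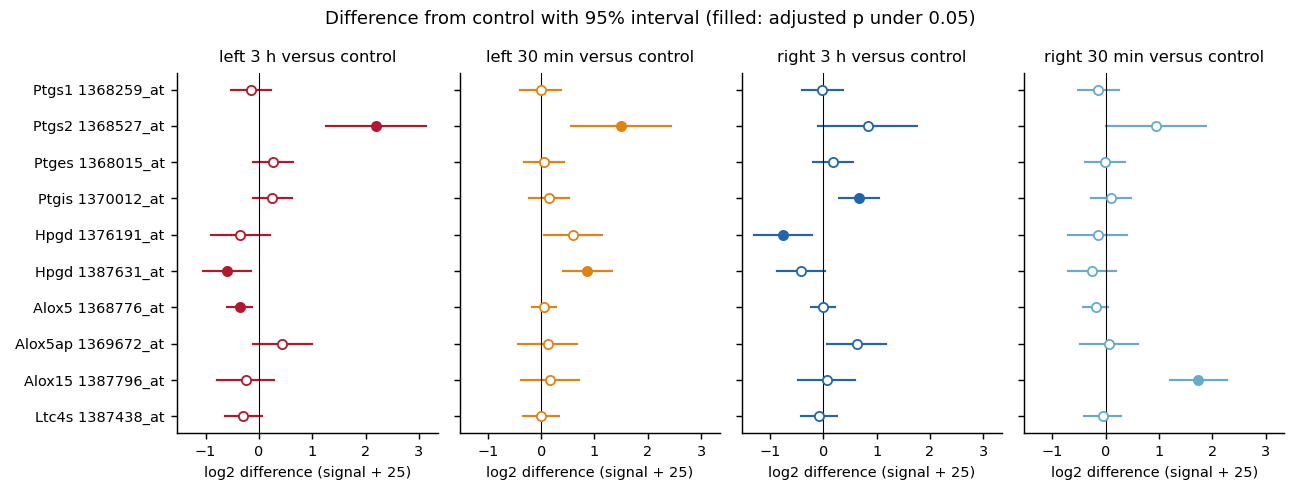
Log2 difference from control of log2(signal + 25) for the 10 tested probe sets, 1 panel per operated group; lines are 95% intervals from limma and filled points have an adjusted p under 0.05. Ptgs2 lies at 2.19 in left lungs at 3 h and Alox15 at 1.74 in right lungs at 30 min, and most other points lie within 1 unit of 0.

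Ptgs2, the inducible cyclooxygenase, rose in the clamped lungs. Its signal was 403, 137 and 213 in left lungs at 3 h and 162, 151 and 94.2 in left lungs at 30 min. In right lungs it was 41.0, 32.8 and 230 at 3 h and 196, 77.7 and 30.6 at 30 min, and in controls 8.64 to 42.4 with a median of 36.0. Every clamped lung lay above every control, while among the right lungs replicate 3 at 3 h and replicates 1 and 2 at 30 min did so and the other 3 lay within the control range. The mean signal was 251 ± 137 (SD, n = 3) in the 3 h group and 136 ± 36.4 (SD, n = 3) in the 30 min group of clamped lungs, against 32.2 ± 12.1 (SD, n = 6) in controls. The log2 difference from control was 2.19 ± 0.45 (SE, limma adjusted p = 0.0013) in left lungs at 3 h and 1.5 ± 0.45 (adjusted p = 0.025) at 30 min.

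Ptgs2 in right lungs differed from control by 0.83 ± 0.45 at 3 h (limma adjusted p = 0.2) and 0.95 ± 0.45 at 30 min (adjusted p = 0.17), and neither was called. The left-right difference was 1.36 ± 0.51 at 3 h (adjusted p = 0.17, 95% interval 0.28 to 2.44). Without right 3 h replicate 3 it was 2.04 ± 0.46 (adjusted p = 0.021), and the right 3 h difference from control was then 0.14 ± 0.41. Ptgs2 passed the filter only through operated lungs, since no control reached the filter signal of 173.6. The 30 min call ended without left 30 min replicate 1 (adjusted p = 0.1) or replicate 2 (adjusted p = 0.085), without the 3 arrays of beta-actin ratio above 2 (1.66 ± 0.66, adjusted p = 0.15, with replicate 2 as the only left lung and its spread taken from the other groups) and with that ratio as a covariate (1.78 ± 0.58, adjusted p = 0.058). The 3 h call held in each fit that included the gene, at log2 differences of 1.34 with a pseudocount of 100 to 2.57 with 10.

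Ptgs2 is made by leukocytes as well as by the lung's own cells. The summed signal of 6 neutrophil markers on the array (12 listed) was 8341 to 21350 in left lungs at 3 h, 6908 to 17230 in left lungs at 30 min, 8336 to 18520 in right lungs at 3 h and 6712 to 12560 in right lungs at 30 min, against 2655 to 4465 in controls. S100a8 and S100a9 carried most of this sum in the operated lungs, and they and Mmp8 were called higher in all 4 operated groups. Lcn2 was a further part, with a mean of 1550 in controls, where the mean sum was 3600. In right lungs at 3 h it was 341 to 7904, with a mean of 4610 against a mean sum of 14700. Cxcr2 and Lcn2 were called in none, and Cxcr1 was called lower in all but right lungs at 3 h (-0.51 ± 0.17 in left lungs at 3 h, limma adjusted p = 0.023). The sum was above every control in right lungs too, including those in which Ptgs2 lay within the control range. The sum of 9 macrophage markers (14 listed) was 17770 to 21260 in left lungs at 3 h, against 17050 to 20200 in controls. The part of these cells in the Ptgs2 result was not tested, and in whole lung fewer cells of a type and less RNA per cell cannot be told apart.

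Ptgs1, the constitutive cyclooxygenase, was not called in any comparison. Its signal was 251, 473 and 401 in left lungs at 3 h, 463, 299 and 469 in left lungs at 30 min, 393 to 416.5 in right lungs at 3 h and 359 to 380.2 in right lungs at 30 min, against 328 to 505 with a median of 390.3 in controls. All operated groups overlapped the controls. The log2 difference in left lungs at 3 h was -0.15 ± 0.18 (limma adjusted p = 0.55), with a 95% interval of -0.53 to 0.23, which does not reach the value of Ptgs2.

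The 2 cyclooxygenases carry out the same reaction, and the 250 bases before their start sites are shown because 1 of them was called and the other was not. The Hpgd sequence is added as that of the clearing enzyme. Sequences are from RefSeq on build GRCr8, which gave a promoter for 6 of the 9 genes. Capitals mark matches, on either strand, to CGTCA (core of the cAMP response element), TGANTCA (AP-1), CACGTG (E-box), GGGCGG (Sp1), TATAAA (the core promoter box bound by TBP), CCAAT (bound by NF-Y), TTNNGNAA (C/EBP core) or an NF-kB site.
Ptgs2, chr13:64713813-64714062 (+ strand): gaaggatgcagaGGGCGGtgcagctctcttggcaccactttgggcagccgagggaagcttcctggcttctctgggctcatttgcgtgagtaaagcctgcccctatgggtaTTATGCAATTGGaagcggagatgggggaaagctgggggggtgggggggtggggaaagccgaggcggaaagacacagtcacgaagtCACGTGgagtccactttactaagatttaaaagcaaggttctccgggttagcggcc
Ptgs1, chr3:39981169-39981418 (+ strand): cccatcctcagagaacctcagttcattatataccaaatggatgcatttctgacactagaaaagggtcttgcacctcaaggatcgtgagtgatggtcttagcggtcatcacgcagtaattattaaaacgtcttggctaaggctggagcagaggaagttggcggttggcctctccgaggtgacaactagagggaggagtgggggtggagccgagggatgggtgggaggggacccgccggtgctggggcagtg
Hpgd, chr16:39034832-39035081 (- strand): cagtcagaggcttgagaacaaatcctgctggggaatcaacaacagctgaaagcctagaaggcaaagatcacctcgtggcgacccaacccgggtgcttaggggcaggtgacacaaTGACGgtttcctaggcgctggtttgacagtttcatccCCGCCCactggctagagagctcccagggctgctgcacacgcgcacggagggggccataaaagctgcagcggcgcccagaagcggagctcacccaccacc
The Ptgs2 window held CACGTG at 55 to 50 bases before the start, a match found in 6.38% of 18999 protein-coding promoters of this length, and in no other of the 6 enzyme promoters. It also held TTNNGNAA at 140 to 133 bases (35.1% of promoters), which shares 1 base with a CCAAT match on the opposite strand at 133 to 129 (35.5%), and GGGCGG at 238 to 233 (40.3%). The Ptgs1 window held none of the 8 motifs. Hpgd had TGACG, the opposite strand of CGTCA, at 136 to 132 bases (21.1%) and GGGCGG on the opposite strand at 99 to 94. The letters searched for AP-1 (5.82% of promoters), the TBP box (12.3%) and NF-kB (1.33%) were in none of the 6 windows, and these matches describe the sequence only.

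Ptges, the inducible prostaglandin E synthase, was read by 2 probe sets that did not give the same picture. The probe set 1368014_at had signals of 429.5, 126 and 130 in left lungs at 3 h, 77.1, 137 and 90.3 in left lungs at 30 min, 88.0, 23.6 and 147 in right lungs at 3 h and 91.6, 59.2 and 101 in right lungs at 30 min, against 45.6 to 87.9 with a median of 73.0 in controls. All left lungs at 3 h lay above every control. It did not pass the filter on low signals. Tested without that filter, its difference in left lungs at 3 h was 1.24 ± 0.36 (limma adjusted p = 0.019). The probe set 1368015_at, which passed, had 275, 127 and 151 in left lungs at 3 h, against 114 to 154 in controls, and differed by 0.26 ± 0.18 (adjusted p = 0.26). On both, left 3 h replicate 1 was the highest of all arrays, as it was for Ptgs2.

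**Figure D2:**
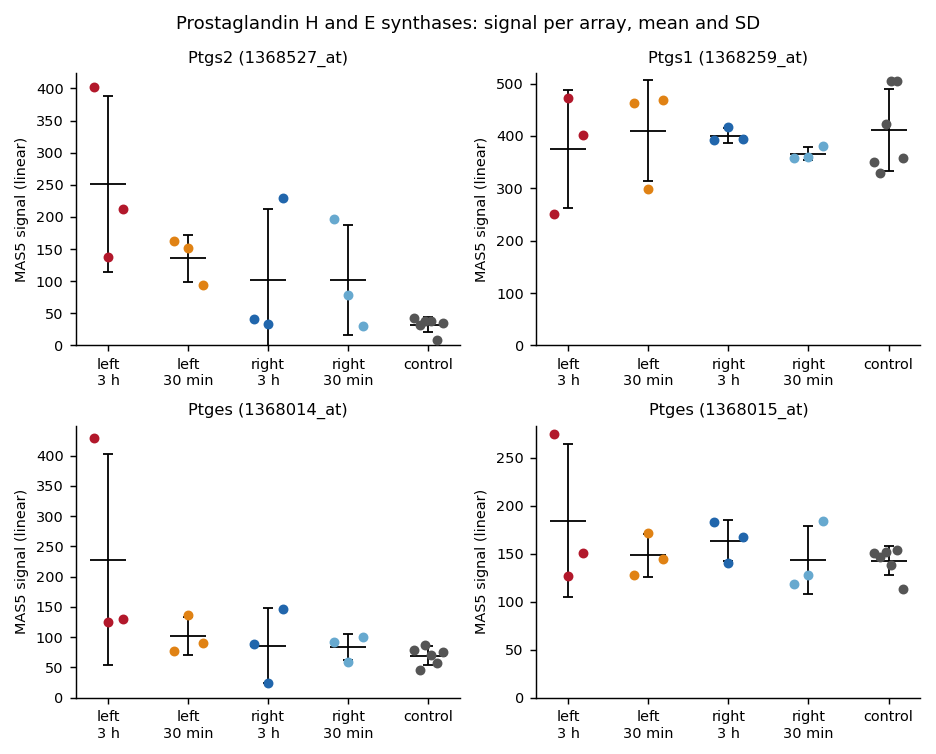
MAS5 signal per array (points) with mean and SD (bars) for Ptgs2, Ptgs1 and both Ptges probe sets in the 5 groups. Ptgs2 lies at 137 to 403 in left lungs at 3 h against 8.64 to 42.4 in controls, while the Ptgs1 groups overlap.

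Ptgis, the prostacyclin synthase of vessel walls, was higher than control in right lungs at 3 h. Its signal was 1201, 782 and 1265 there, against 553 to 812 with a median of 649.4 in controls, so replicates 1 and 3 lay above every control and replicate 2 did not. The log2 difference was 0.67 ± 0.18 (SE, limma adjusted p = 0.013). Left lungs at 3 h had 1021, 845 and 567, with a difference of 0.25 ± 0.18 (adjusted p = 0.27). At 30 min left lungs had 678 to 803 and right lungs 625.4 to 811, all within the control range. The call in right lungs ended without replicate 1 (0.58 ± 0.21, adjusted p = 0.061) or replicate 3 (0.54 ± 0.20, adjusted p = 0.08), and in left lungs at 3 h a call was gained without replicate 3 (0.48 ± 0.18, adjusted p = 0.039). The summed signal of 7 cardiac muscle markers was 4296, 9867 and 1989 in right lungs at 3 h, in order of replicate, against 226 to 3474 in controls. The lung highest in this sum was thus the lowest in Ptgis, and 0 of the 5 tested cardiac markers were called. For 7 endothelial markers the sum was 18080 to 20960 against 20070 to 23830, with 1 called higher and 2 lower. For 7 smooth muscle and fibroblast markers it was 17650 to 19120 against 18700 to 21650. Their part in the result was not tested.

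Hpgd, which inactivates prostaglandins, had a mean above control at 30 min and below it at 3 h in the clamped lungs on both of its probe sets, and both differences were called on 1 of them. The probe set 1387631_at had 212, 264 and 331 in left lungs at 3 h and 951, 559 and 864 in left lungs at 30 min. Right lungs had 326, 419 and 198 at 3 h and 337.5, 297 and 400.5 at 30 min, and controls 313 to 544 with a median of 433. At 30 min every left lung lay above every control and every right lung. The difference from control was -0.60 ± 0.22 in left lungs at 3 h (SE, limma adjusted p = 0.037) and 0.86 ± 0.22 at 30 min (adjusted p = 0.0096). Between the times, left lungs at 3 h were 1.46 ± 0.25 below those at 30 min (adjusted p = 0.0048), with no overlap.

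The other Hpgd probe set, 1376191_at, had 434, 517.5 and 737 in left lungs at 3 h and 1368, 942 and 992 in left lungs at 30 min, against 556 to 853 with a median of 740.5 in controls. At 30 min every left lung again lay above every control, and the difference was 0.60 ± 0.26 (limma adjusted p = 0.11). Between the times it was -0.95 ± 0.30 (adjusted p = 0.082), with no overlap, and neither was called. In right lungs at 3 h, which had 429, 697.5 and 220, this probe set was called lower (-0.76 ± 0.26, adjusted p = 0.045), where 1387631_at gave -0.43 ± 0.22 (adjusted p = 0.17). That call ended without any 1 of control replicates 1, 2, 3, 4 or 6, and without right 3 h replicate 1 or 3, the difference being -0.35 ± 0.23 without replicate 3 (adjusted p = 0.34).

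Hpgd at 30 min ran beside RNA quality. On 1387631_at, left 30 min replicates 1, 3 and 2 were in descending order of Hpgd signal (951, 864 and 559) and of beta-actin ratio (4.81, 2.30 and 1.53), and the right 30 min lung of highest ratio (2.93) had the highest Hpgd of its group. Without left 30 min replicate 1 the difference from control was 0.72 ± 0.25 (limma adjusted p = 0.068), and with the ratio as a covariate 0.53 ± 0.26 (adjusted p = 0.19). Without the 3 arrays above 2, which leaves left 30 min replicate 2 alone, assumed to vary like the other groups, it was 0.41 ± 0.32 (adjusted p = 0.47). The left 3 h call ended when arrays were centred on their median (-0.43 ± 0.20, limma adjusted p = 0.1). Before centring, the median difference from control over all tested genes was -0.13 in left lungs at 3 h. The Hpgd call there also ended without left 3 h replicate 1 (-0.45 ± 0.25, adjusted p = 0.2) or 2, and without any 1 of control replicates 1, 3, 4 or 6 (adjusted p of 0.057 to 0.09 in these 5 fits). The difference between the times was -1.18 ± 0.27 with the ratio as a covariate (adjusted p = 0.072) and -1.01 ± 0.34 without the 3 arrays (adjusted p = 0.43). The summed signal of 7 type II cell markers was 34100 to 45010 in left lungs at 3 h, against 49710 to 53450 in controls, with 4 of the 7 called lower, and their part in the Hpgd result was not tested.

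**Figure D3:**
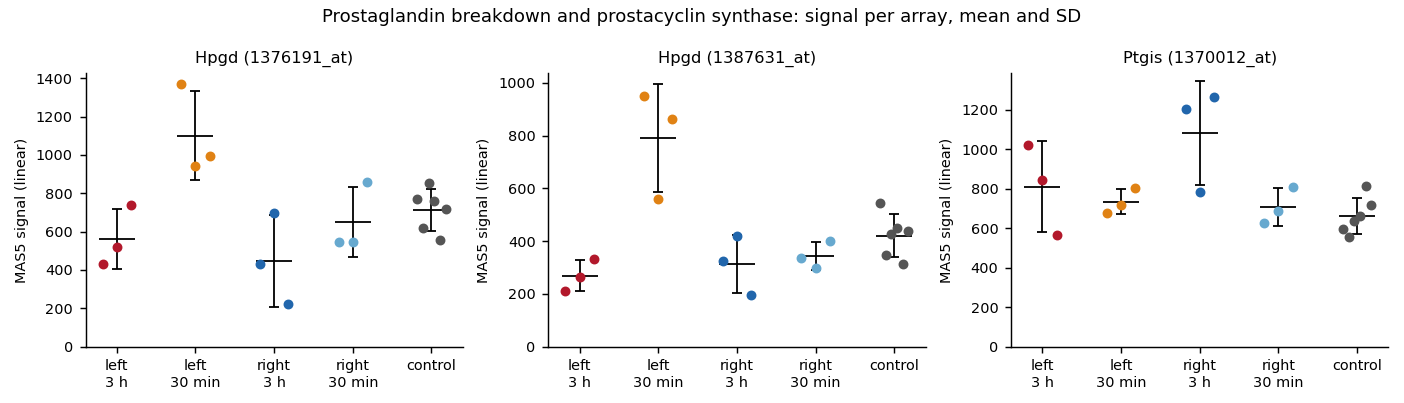
MAS5 signal per array (points) with mean and SD (bars) for both Hpgd probe sets and for Ptgis in the 5 groups. On both Hpgd probe sets the left lungs at 30 min lie above all controls, and 2 of 3 right lungs at 3 h lie above all controls for Ptgis.

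Alox15, a lipoxygenase, was called higher than control in the unclamped lungs at 30 min. Its signal was 707, 695 and 1775 in right lungs at 30 min, against 208 to 315 with a median of 275.6 in controls, with no overlap. The difference was 1.74 ± 0.26 (SE, limma adjusted p = 0.00028), a 3.33-fold higher value on the scale of signal + 25. Right lungs at 3 h had 265, 231 and 366, and left lungs had 139, 301 and 258 at 3 h and 309, 322 and 289 at 30 min. These differed from control by 0.06 ± 0.26, -0.25 ± 0.26 and 0.17 ± 0.26 (adjusted p = 0.9, 0.46 and 0.68). Right lungs at 3 h were 1.68 ± 0.29 below those at 30 min (adjusted p = 0.026), and left lungs at 30 min were 1.57 ± 0.29 below right lungs at 30 min (adjusted p = 0.064), which was not called although the arrays did not overlap.

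The Alox15 difference between right lungs at 30 min and control was called in every fit run, at 1.30 to 1.96. The array of highest Alox15, right 30 min replicate 3, had a beta-actin ratio of 2.93. Without it the difference was 1.30 ± 0.21 (limma adjusted p = 0.0012), and the difference between the times was -1.24 ± 0.24 and no longer called (adjusted p = 0.077), as was the case without right 3 h replicate 1 (adjusted p = 0.075) or 2 (adjusted p = 0.083). Without right 30 min replicate 1 or 2 the left-right difference at 30 min was called (adjusted p = 0.042 and 0.047).

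The enzyme of this gene was first known from rabbit reticulocytes, and it is also a gene of eosinophils and macrophages. Of 4 erythroid markers on the array (6 listed), 3 were called higher in right lungs at 30 min, Alas2 by 1.62, Slc4a1 by 1.74 and Ahsp by 1.25 on the log2 scale (limma adjusted p = 0.0012, 2.9e-05 and 0.0012), while Hbb differed by 0.17 (adjusted p = 0.41). The summed signal of the 4 was 18640, 16970 and 24600 in right lungs at 30 min, against 12420 to 17050 in controls. The array highest in Alox15 was the highest in this sum as well. Right 3 h replicate 3 had a sum of 21300, above right 30 min replicates 1 and 2, and an Alox15 signal of 366. Alas2, the first enzyme of haem synthesis in red cells, had 2881 to 7126 in right lungs at 30 min. It had 1406 to 2475 in right lungs at 3 h and 1004 to 1772 in controls. Its mean was 4440 of a mean sum of 20100 in right lungs at 30 min, and 1340 of 14800 in controls. The sum of 3 eosinophil markers, none of which passed the filter, was 194 to 306.5 in right lungs at 30 min and 187 to 264 in controls. That of 9 macrophage markers was 16500 to 18960 in right lungs at 30 min and 17050 to 20200 in controls. The part of these cells in the Alox15 result was not tested.

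Alox5, the enzyme that starts leukotriene synthesis, was lower in left lungs at 3 h. Its signal was 187, 197 and 217.5 there, against 248 to 298 with a median of 252 in controls, with no overlap. The left 3 h group differed by -0.36 ± 0.11 (SE, limma adjusted p = 0.017). Left lungs at 30 min had 260 to 300.3, right lungs at 3 h 232 to 306 and right lungs at 30 min 192 to 251, none of which was called. After centring of all arrays on their medians the left 3 h difference was -0.20 ± 0.11 (adjusted p = 0.2) and the call ended, as it did without left 3 h replicate 1 (adjusted p = 0.087) or 2 (adjusted p = 0.053). In the left lungs at 3 h 2 of the 8 tested macrophage markers were called higher and 1 lower. The lower one was Csf1r (-0.38 ± 0.12, limma adjusted p = 0.021), at a mean signal of 1230 against 1630 in controls. Cd14 had a mean of 3260 against 620 and Mertk 412 against 235. The part of macrophages and neutrophils in the Alox5 result was not tested.

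Alox5ap, the membrane partner that hands arachidonic acid to Alox5, was not called. It had 1467, 578 and 566 in left lungs at 3 h, 581, 1013 and 409 in left lungs at 30 min, 982, 744 and 976.5 in right lungs at 3 h and 532, 667 and 601 in right lungs at 30 min, against 523 to 646 with a median of 555.5 in controls. All right lungs at 3 h lay above every control (0.62 ± 0.26, SE, limma adjusted p = 0.099), and in left lungs at 3 h replicate 1 alone was far above them (0.44 ± 0.26, adjusted p = 0.19). With only the right 3 h and control arrays in the fit, the difference of 0.62 was called (adjusted p = 0.0035). In a comparison made after seeing the values, the array highest in Alox5ap was also the highest in the neutrophil sum in left lungs at 3 h (21350), left lungs at 30 min (17230) and right lungs at 30 min (12560). In right lungs at 3 h, replicates 1 and 3 were high in both (17110 and 18520) and replicate 2 low in both (8336). The sum there includes Lcn2, which was not called and ran from 341 to 7904. In controls the highest Alox5ap was in replicate 4 (646) and the highest neutrophil sum in replicate 2 (4465), and the part of neutrophils in the Alox5ap values was not tested.

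Ltc4s, which joins glutathione to leukotriene A, was 294, 327 and 276 in left lungs at 3 h, against 328 to 399 in controls. All 3 lay below every control, but the difference of -0.29 ± 0.16 was not called (SE, limma adjusted p = 0.17). It was called without the 3 arrays of high beta-actin ratio (adjusted p = 0.025) and with only the arrays compared (adjusted p = 0.031). Left lungs at 30 min had 292 to 484, right lungs at 3 h 331 to 366 and right lungs at 30 min 284.5 to 516.

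**Figure D4:**
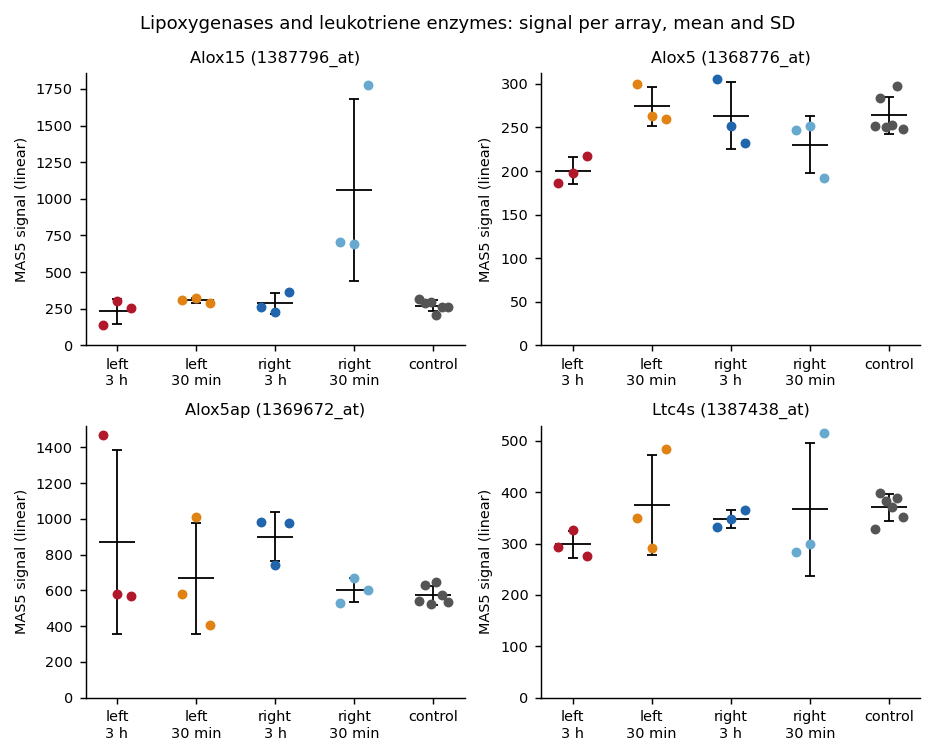
MAS5 signal per array (points) with mean and SD (bars) for Alox15, Alox5, Alox5ap and Ltc4s in the 5 groups. Alox15 lies at 695 to 1775 in right lungs at 30 min against 208 to 315 in controls, and Alox5 lies below all controls in left lungs at 3 h.

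**Figure D5:**
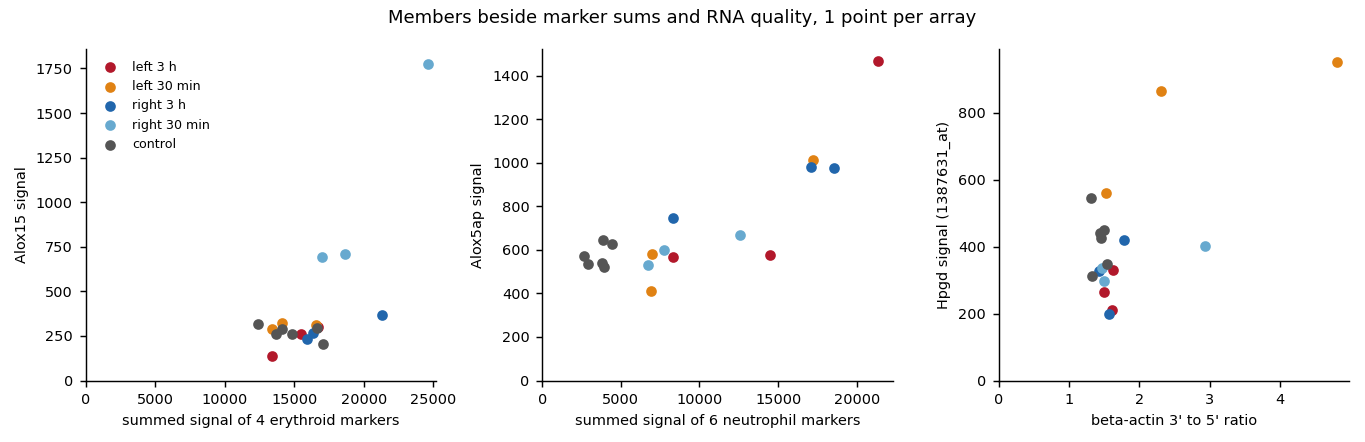
Each point is 1 array: Alox15 signal against the summed signal of 4 erythroid markers, Alox5ap signal against that of 6 neutrophil markers, and Hpgd signal (1387631_at) against the beta-actin 3' to 5' ratio. The array of highest Alox15 (1775) has the highest erythroid sum (24600), and the array of highest Alox5ap (1467) the highest neutrophil sum (21350). Right 3 h replicate 3 has an erythroid sum of 21300 at an Alox15 signal of 366. Alas2, 1 of the 4 erythroid markers, was 1406 to 2475 in right lungs at 3 h and 2881 to 7126 at 30 min.

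Between clamped and unclamped lungs none of the 9 genes was called by limma at 3 h (2.37% of all genes) or at 30 min (0.0518%), although 2 of 9 had an unadjusted p under 0.05 at each time. The left-right difference did not change by a called amount from 30 min to 3 h in any of them (0.233% of all genes, 2 of 9 with an unadjusted p under 0.05). Between the times, 0 of 9 genes were called in left lungs by the probe set of highest mean (3.07% of all genes, 2 with an unadjusted p under 0.05), where the other Hpgd probe set was called. In right lungs 1 of 9, Alox15, was called (0.194%).

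The wider pathway was described with 66 further genes, of which 45 were on the array and 30 were tested. In left lungs at 3 h 4 of the 30 were called higher and 7 lower, against 13.5% and 24.1% of all genes. In left lungs at 30 min 1 was higher and 2 lower (8.64% and 9.52%), in right lungs at 3 h 6 higher and 1 lower (7.75% and 12.6%), and in right lungs at 30 min 1 higher and 0 lower (5.93% and 6.33%; Plaa, whose call ended without right 30 min replicate 1 or 2 and was not made by its other probe set). The median log2 difference of the 30 was -0.15, -0.06, 0.08 and -0.03 in that order, against -0.13, -0.06, -0.05 and -0.04 over all genes. The share of higher among all called probe sets depended on scaling, at 36.6%, 43.6%, 38.5% and 45.4% as deposited and 60.8%, 62.2%, 55.9% and 57.0% with arrays centred on their median.

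Upstream of the cyclooxygenases, 9 genes of phospholipases and their regulators were tested. In left lungs at 3 h 2 of the 9 were called higher and 1 lower (13.5% and 24.1% of all genes). At 30 min 1 of 9 was called higher in left lungs (8.64%) and 1 of 9 in right lungs (5.93%). In right lungs at 3 h 5 of the 9 were called higher, against 7.75% of all genes. Of these 5, Anxa1 and Plaa are regulators, and the list was chosen with earlier results of these data known. Of the other classes, 1 of 9 leukotriene and lipoxygenase genes was called higher there, and 0 of 4 other prostanoid synthases, 0 of 3 genes of prostanoid inactivation and transport and 0 of 5 receptors. Pla2g2a, the secreted phospholipase of inflammation, had 4111, 1083 and 1992 there and 952, 2512 and 1035 in left lungs at 3 h, against 184 to 1051 in controls. Its difference was 2.17 ± 0.56 in right lungs (SE, limma adjusted p = 0.012), with no overlap, and 1.57 ± 0.56 in left lungs (adjusted p = 0.037). The right lung call ended without replicate 1 (1.68 ± 0.63, adjusted p = 0.075), and the left lung call without any 1 of control replicates 2, 3, 4 or 6 or left 3 h replicates 1 or 2, reaching 1.13 ± 0.64 without left 3 h replicate 2. Pla2g1b, the pancreatic type of secreted phospholipase, moved in opposite directions on the 2 sides at 3 h. It had 744, 1248 and 1262 in left lungs and 1976, 2143 and 2586 in right lungs, against 1348 to 1631 in controls, so that the 3 groups did not overlap. Left lungs differed from control by -0.52 ± 0.16 (adjusted p = 0.016) and right lungs by 0.54 ± 0.16 (adjusted p = 0.023), and left lungs were 1.06 ± 0.18 below right lungs (adjusted p = 0.0066). Against control the left lung call ended without left 3 h replicate 1 (-0.28 ± 0.14, adjusted p = 0.18) and the right lung call without right 3 h replicate 3 (0.43 ± 0.18, adjusted p = 0.12).

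Anxa1, an anti-inflammatory protein that glucocorticoids induce and that restrains phospholipase activity, had 7965, 6755 and 7059 in left lungs at 3 h, against 4194 to 4574 in controls. It was called higher in left lungs at 3 h (0.72 ± 0.10, SE, limma adjusted p = 5.4e-05) and at 30 min (0.41 ± 0.10, adjusted p = 0.0076), and in right lungs at 3 h (0.42 ± 0.10, adjusted p = 0.0071), with no overlap with controls in any of these. The 30 min call ended with the beta-actin ratio as a covariate (0.40 ± 0.13, adjusted p = 0.058). Pla2g12a (0.91 ± 0.25, adjusted p = 0.017) and Plaa (0.42 ± 0.09, adjusted p = 0.0051) made up the 5 in right lungs at 3 h. The other Plaa probe set was called higher in left lungs at 3 h (0.67, adjusted p = 0.0017) and 30 min (0.53, adjusted p = 0.013) and in right lungs at 3 h (0.42, adjusted p = 0.043), but not in right lungs at 30 min (0.28, adjusted p = 0.2). The Pla2g12a call ended without right 3 h replicate 1 (0.62 ± 0.27) or 3 (0.86 ± 0.30).

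Downstream, Slco2a1, the carrier that takes prostaglandins into cells for breakdown, was 2259, 3327 and 3963 in left lungs at 3 h, against 4391 to 5528 in controls. It was lower on both of its tested probe sets, by 0.67 ± 0.19 (limma adjusted p = 0.011) and by 0.83 (adjusted p = 0.0047) on the log2 scale. The first of these calls ended without left 3 h replicate 1 (-0.45 ± 0.20, adjusted p = 0.11). On the leukotriene side Lta4h, which makes leukotriene B, was called lower in left lungs at 3 h (-0.69 ± 0.13, adjusted p = 0.00077) and at 30 min (-0.56 ± 0.13, adjusted p = 0.0063). Mgst3, a glutathione transferase of the same family as Ltc4s and Alox5ap, was lower at both times too (-0.55 ± 0.13 and -0.56 ± 0.13, adjusted p = 0.0031 and 0.0053). Both 30 min calls ended with the beta-actin ratio as a covariate (adjusted p = 0.077 and 0.12). Cotl1, which binds Alox5, was lower in left lungs at 3 h (-0.61 ± 0.17, adjusted p = 0.0085), a call that ended without left 3 h replicate 3 (adjusted p = 0.054), and Ggt1, which trims cysteinyl leukotrienes, was higher in right lungs at 3 h (0.35 ± 0.09, adjusted p = 0.013), a call that ended without right 3 h replicate 3.

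Among receptors, Tbxa2r, the thromboxane receptor of platelets and vascular muscle, had 87.5, 17.0 and 90.4 in left lungs at 3 h and 96.7, 82.8 and 115.5 in right lungs at 3 h, against 190 to 285 in controls. It was called lower in both, by 1.74 ± 0.26 (limma adjusted p = 9.1e-05) and by 1.16 ± 0.26 (adjusted p = 0.0043). Ltb4r, the leukotriene B receptor of leukocytes, had 385, 213 and 222 in left lungs at 3 h, against 34.6 to 183 in controls, and was called higher there (1.42 ± 0.30, adjusted p = 0.0014). It had 72.9 to 104.5 in left lungs at 30 min and 86.7 to 149 in right lungs at 3 h, within the control range. Of its arrays above the filter signal, 3 were left lungs at 3 h and 1 was a control. Ptgfrn, a regulator of the prostaglandin F receptor, was lower in left lungs at 3 h (-0.50 ± 0.14, adjusted p = 0.0084) and Ppard, a nuclear receptor that prostacyclin can bind, higher (0.67 ± 0.20, adjusted p = 0.015), and both calls ended without left 3 h replicate 1 (-0.28 ± 0.12 and 0.49 ± 0.22).

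The genes most like each called enzyme were ranked by Pearson correlation of log2(signal + 25) over the 18 arrays, which share rats, scaling and the group differences. Ptgs2 was closest to the neutrophil chemokine Cxcl2 (0.936), Cdcp1 (0.936) and the sphingosine kinase Sphk1 (0.930). Alox15 was closest to Bpgm (0.924), which makes the bisphosphoglycerate that lowers the oxygen affinity of haemoglobin in red cells, Cd52 (0.907) and Alas2 (0.895). Hpgd on 1376191_at was closest to Slfn5 (0.880), Ddhd2 (0.861) and Focad (0.849), and on 1387631_at to Ctnnal1 (0.856), Sv2b (0.845) and Ptprm (0.827). Alox5 was closest to Myof (0.823), Pigk (0.810) and Anapc5 (0.803), and Ptgis to Rps9 (0.739), Pdcd2 (0.736) and Pgk1 (0.728).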

How the data were processed

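Per the labels, biotin-labelled RNA of 18 rat lungs in 5 groups was hybridised to 1-colour Affymetrix rat 230A arrays. The deposited values are MAS5 intensity signals of 15923 probe sets on a linear scale, per the submitters' processing notes (their version is not recorded there). The deposited signals were taken as already scaled per array, so no further scaling was applied. Array medians ran from 232.3 in left 3 h replicate 1 to 283.8 in control replicate 1. After leaving out 57 control probe sets, log2(signal + 25) was analysed, and testing was limited to the 10533 probe sets above a signal of 173.6 (the 40th percentile over the file) on 3 or more arrays. Symbols came from the platform annotation: 12783 probe sets had 1 symbol, 312 several and 2771 none, and only the first were named. Comparisons were fitted with limma 3.58.1 (R 4.3.3; lmFit and eBayes on 5 group means over all 18 arrays), with two-sided tests and Benjamini-Hochberg adjustment over all tested probe sets within each of 9 comparisons. The fit was run on simulated data with independent noise on each array and known changes in left lungs at 3 h. Shared rats and RNA degradation were not simulated, so that run checks the code only. Tables and figures used Python 3.11.15, pandas 2.3.3 and matplotlib 3.10.9.

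All 9 enzymes were named, pathway genes only if called against control or between sides, and for each called enzyme the 3 genes of highest correlation. The enzymes, the lists and the alternatives were chosen with earlier results of these data known. Errors of differences are limma standard errors. Since no label ties a replicate number to a rat, lungs were not paired, left and right lungs of 1 rat count as separate samples, and p-values measure the spread between these lungs. The alternatives were other pseudocounts, filters and scalings, fits of only the groups compared, the beta-actin ratio as a covariate or a filter, a replicate block, and leaving out each array. No 2 arrays held identical values. The number of arrays limits the precision of every value.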

Additional observations from a re-analysis of the deposited data

Results flagged for a closer look

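Control replicate 5 stood apart from the other 5 controls in Ptgs2, with a signal of 8.643, at a gap of 0.684 of the group's range, where Dixon's 95% critical value for 6 samples is 0.625. Over the 11 probe sets tested in this way chance gives such a gap in about 1 group in 20. Hpgd (1387631_at) in left lungs differed between the times, at a log2 difference of -1.46 for 3 h minus 30 min (limma adjusted p = 0.0048), with every array at 3 h below every array at 30 min. It was no longer called with the beta-actin ratio as a covariate (adjusted p = 0.072). Alox15 in right lungs differed between the times as well, at -1.68 for 3 h minus 30 min (adjusted p = 0.026), with no overlap between the groups.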

How the results depend on the processing

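The fits were compared for enzyme differences with an adjusted p under 0.2 or a call in any fit, and for called differences of pathway genes; other differences were not followed. None of those compared changed sign. Counting each fit, with leaving out 1 replicate counted by its extremes, 522 values kept their side of the threshold, 98 lost a call and 10 gained one. Counts of enzymes called moved as follows. In left lungs at 30 min the count of 1 was 0 with a filter of at least 9 arrays, with the replicate number as a block, without the arrays of beta-actin ratio above 2 and with that ratio as a covariate, and 2 with only the arrays compared. In left lungs at 3 h the count of 2 was 1 with the filter of 9 arrays, with centring on the median, with quantile normalization and with the replicate block. In right lungs at 3 h the count of 2 was 1 with no filter, with centring, with quantile normalization, with the replicate block and when every probe set of a gene had to be called. For left against right at 30 min the count of 0 was 1 (Alox15) with a pseudocount of 100 and with the actin ratio as a covariate. For right 3 h against right 30 min the count of 1 was 0 with no filter, with only the arrays compared, with the replicate block and without the degraded arrays (actin ratio above 2). The filter of 9 arrays leaves Ptgs2 untested by construction, and for the rest the cause was not tested. Leaving out 1 replicate at a time gave 0 to 1 in left lungs at 30 min, 1 to 3 in left lungs at 3 h (3 without left 3 h replicate 3, where Ptgis was added), 1 to 1 in right lungs at 30 min, 0 to 2 in right lungs at 3 h, 0 to 1 for left against right at each time, 0 to 1 for left 3 h against left 30 min, 0 to 1 for right 3 h against right 30 min and 0 to 0 for the left-right difference at 3 h minus that at 30 min.

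Same-numbered left and right lungs deviated from their group means with correlations of 0.12, 0.31 and 0.15 at 30 min and -0.17, 0.066 and -0.15 at 3 h, so that at 30 min, but not at 3 h, every lung correlated best with its own number. At 3 h left 1 was closest to right 3 (0.34), left 2 to right 1 (0.22) and left 3 to right 2 (0.16). Each of these was the best match of both lungs. The numbers were not taken as pairs, and a block by number at 3 h joined other lungs than these. With the replicate number as a block (within time for left against right), 947 probe sets were called in left lungs at 30 min (2099 with no block), 2561 in left lungs at 3 h (3977), 415 in right lungs at 30 min (1407), 952 in right lungs at 3 h (2255), 0 for left against right at 30 min (4) and 15 at 3 h (240). Against control, the numbers 4, 5 and 6 occurred among controls only. Control replicates 4, 5 and 6 therefore did not add to those estimates. The blocks numbered 1, 2 and 3 joined a control lung with operated lungs of other rats. With the block, Pla2g1b for left against right at 3 h was not called (limma adjusted p = 0.078), and Ptgs2 in left lungs at 30 min was at 1.35 (adjusted p = 0.14). Without the arrays of actin ratio above 2, 637 were called in left lungs at 30 min, and with that ratio as a covariate 1194. Signals of Ptgs2 in controls lie low on the array scale, so the size of its change depends on the pseudocount.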
